A study of Arabidopsis thaliana with 4 samples.

Results

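Transcripts of 10 nuclear genes that regulate the chloroplast of Arabidopsis thaliana were followed: the MYB-type factors *GLK1* (AT2G20570) and *GLK2* (AT5G44190), the GATA factors *GNC* (AT5G56860) and *CGA1* (AT4G26150), and the plastid sigma factors *SIG1* (AT1G64860), *SIG2* (AT1G08540), *SIG3* (AT3G53920), *SIG4* (AT5G13730), *SIG5* (AT5G24120) and *SIG6* (AT2G36990). They were taken by locus name and made up 10 of the 25665 loci and 10 of the 37478 probes on the array, with 1 probe and 1 spot each. Meristem-enriched tissue (2 arrays) was compared with whole young leaves (2 arrays). All plants carried the *clv3-9* allele, a point mutation in the stem cell peptide gene *CLV3* that enlarges the shoot apical meristem, and were grown for 9 weeks with 8 h light and 16 h darkness. Both tissues were dissected by hand, and no wild type sample was among the arrays. The design text calls the 2 samples of a tissue biological replicates; it does not say how many plants each one pooled. The comparison asks how far the transcripts that drive chloroplast development differ between undifferentiated and green tissue.

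Shoot meristem cells hold small undifferentiated proplastids, which become photosynthetic chloroplasts as leaf cells differentiate. GOLDEN2-LIKE (GLK) factors activate nuclear genes of chlorophyll synthesis and of the light-harvesting antenna. *GNC* and *CGA1* are B-class GATA factors that respond to light, nitrate and cytokinin and promote greening and chloroplast division. Sigma factors are made in the nucleus and imported into the plastid, where they direct the bacterial-type plastid-encoded RNA polymerase (PEP) to its promoters.

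The array design places the *GLK1* probe on chromosome 2 at 8864681 to 8864740 and the *GLK2* probe on chromosome 5 at 17817966 to 17818025, both on the plus strand. The *GNC* probe lies on chromosome 5 at 23006523 to 23006582 (minus strand) and the *CGA1* probe on chromosome 4 at 13254527 to 13254586 (plus strand). Of the sigma factor probes, those of *SIG1* and *SIG2* lie on chromosome 1, *SIG6* on chromosome 2, *SIG3* on chromosome 3, and *SIG4* and *SIG5* on chromosome 5. The files do not name the genome build of these positions, and which exon or UTR a probe covers was not analysed here.

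Signals are log2 intensities, set relative to the 75th percentile of their own array, so that 1 unit is a doubling, and a difference is meristem minus leaf. Between replicates the scaled signals of all loci correlated at r = 0.991 in the meristem and 0.994 in the leaf, across loci that are not independent replicates. From 60.1% to 63.3% of probes per array were well above background. Every one of the 10 regulators exceeded the background clearly on each of the 4 arrays, and none was saturated. Their processed intensities ranged from 51.3 to 8518, lowest for *CGA1*, where the lowest intensity counted as well above background was 7.04 to 9.27 per array. All 6 meristem markers were higher in the meristem samples, with *STM* at a difference of 6.73 and *CLV3* at 5.61, and *WUS*, not well above background in leaves, exceeded its leaf bound by at least 33.0-fold (3 of the 6 passed with normexp).

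Of the 10 regulators, 9 were lower in the meristem at an adjusted p of at most 0.05 (limma, Benjamini-Hochberg over the 23259 loci tested), 0 were higher, and *CGA1* did not pass. Of all loci tested, 21.6% were called lower and 27.1% higher at this threshold. Among the 9 regulators called, 5 (*GLK1*, *SIG4*, *GNC*, *SIG2* and *SIG1*) were lower by at least 2 log2 units, a call that 6.41% of all loci met. The median difference of the 10 was -1.79, against 0.10 over all loci. In 9 regulators both meristem values lay below both leaf values, as for 35.5% of all loci. In bulk tissue, a smaller share of cells with a transcript and less of it per cell cannot be told apart. The limma p-values rest on the spread between these 2 samples per tissue, combined with a typical spread taken from all loci tested.

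**Figure D1:**
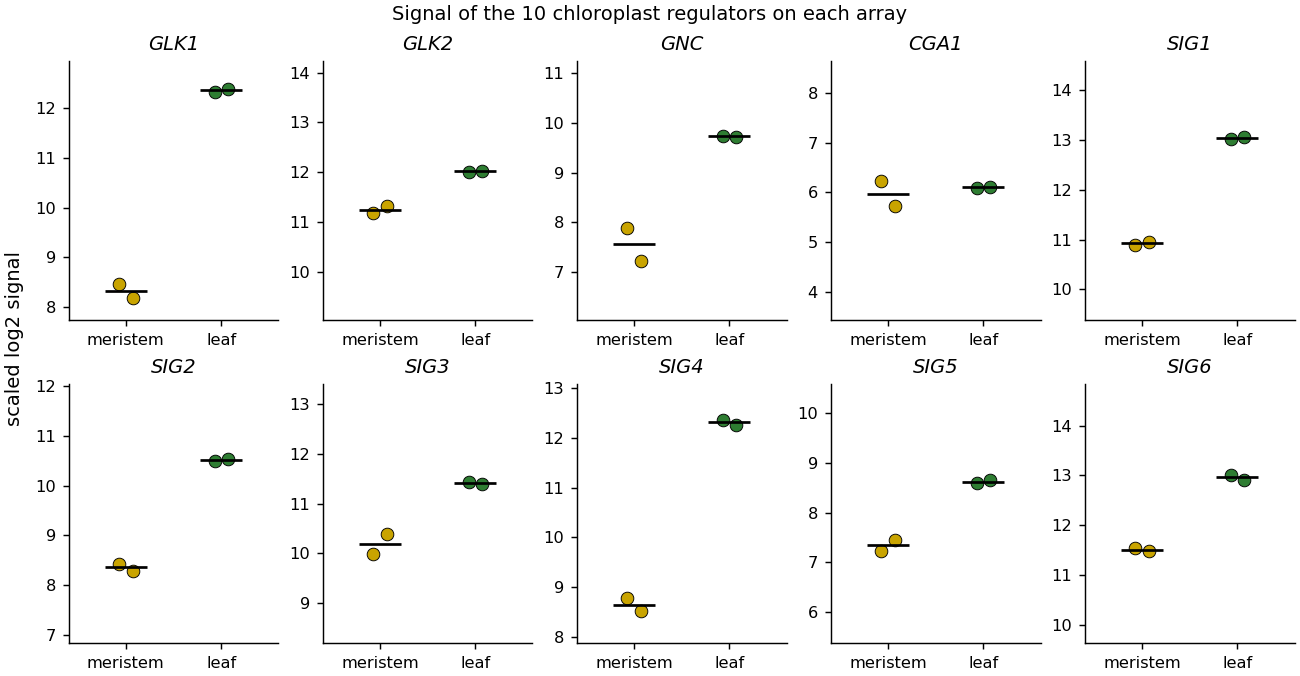
Scaled log2 signal (vertical axis) of each regulator on the 2 meristem arrays (yellow) and the 2 leaf arrays (green), with the mean of each tissue as a bar. Every panel spans the same number of log2 units around its own centre. The meristem points lie below the leaf points in all panels but that of *CGA1*, where the leaf points fall between them.

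*GLK1* had the largest difference of the set. Its scaled signal was 8.47 and 8.19 on the meristem arrays, against 12.33 and 12.39 on the leaf arrays. The tissues lay far apart beside a spread of 0.20 in the meristem and 0.04 in the leaf (SD, n = 2 each). The difference was -4.03 (SE 0.15, 95% interval -4.44 to -3.62, adjusted p = 0.000519 in limma), so that leaf signal was 16.4-fold that of the meristem. It stood at percentile 1.17 of the differences of all loci tested, and its call held under all 15 alternative settings.

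*GLK2*, the partner with overlapping function in Arabidopsis, differed far less. Its signal was 11.17 and 11.31 in the meristem, against 12.01 and 12.03 in the leaf. The tissues did not overlap, and the difference of -0.78 (SE 0.12, 95% interval -1.12 to -0.44, adjusted p = 0.00961 in limma) amounted to 1.72-fold more signal in the leaf. This call was lost without leaf replicate 1 (-0.79, adjusted p = 0.0612 in limma) or leaf replicate 2 (-0.77, adjusted p = 0.0629). It was also lost with normexp background correction (-0.73, adjusted p = 0.123), without scaling (-0.36, adjusted p = 0.435) and with scaling to the spike-in controls (-0.01, adjusted p = 0.940).

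Within an array, the log2 ratio of *GLK1* to *GLK2* signal was -2.71 and -3.12 in the meristem, against 0.32 and 0.36 in the leaf. The ratio changed by -3.25 between the tissues. The 2 probes bind with their own strength, so the ratio on a single array does not rank the genes, but its change between tissues is unaffected by a shift of whole arrays. Among 17 pairs formed within the 3 families, 13 had ratios that did not overlap between tissues, as did 80% of the pairs formed from all loci tested, so the lack of overlap is no result about these families and only the sizes of the changes are given. With 2 arrays per tissue the smallest two-sided exact permutation p is 0.333 for any pair, or 0.436 after Benjamini-Hochberg adjustment over the 17, so no pair could pass 0.05.

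*GNC*, a GATA factor named for its induction by nitrate, was lower in the meristem. Its signal was 7.89 and 7.22 in the meristem, against 9.73 and 9.72 in the leaf. The meristem replicates lay 0.67 apart, the widest gap of any regulator, while the leaf replicates were nearly equal. The difference was -2.17 (SE 0.26, 95% interval -2.87 to -1.47, adjusted p = 0.00421 in limma), a 4.50-fold higher signal in the leaf. The call was lost with normexp background correction (-1.69, adjusted p = 0.102 in limma) and with Benjamini-Hochberg adjustment of the test named in the study's methods (adjusted p = 0.0687).

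*CGA1*, a GATA factor named for its response to cytokinin, gave no call. Its signal was 6.24 and 5.72 in the meristem, against 6.09 and 6.12 in the leaf. The leaf values lay between the meristem values, and the difference of -0.13 (SE 0.21, adjusted p = 0.649 in limma) had a 95% interval of -0.70 to 0.45. A change beyond 1.62-fold in favour of the leaf lay outside that interval. The sign turned without meristem replicate 2 (0.13), without scaling (0.29) and with spike-in scaling (0.64). The within-array log2 ratio of *GNC* to *CGA1* was 1.65 and 1.50 in the meristem, against 3.64 and 3.60 in the leaf, a change of -2.05.

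**Figure D2:**
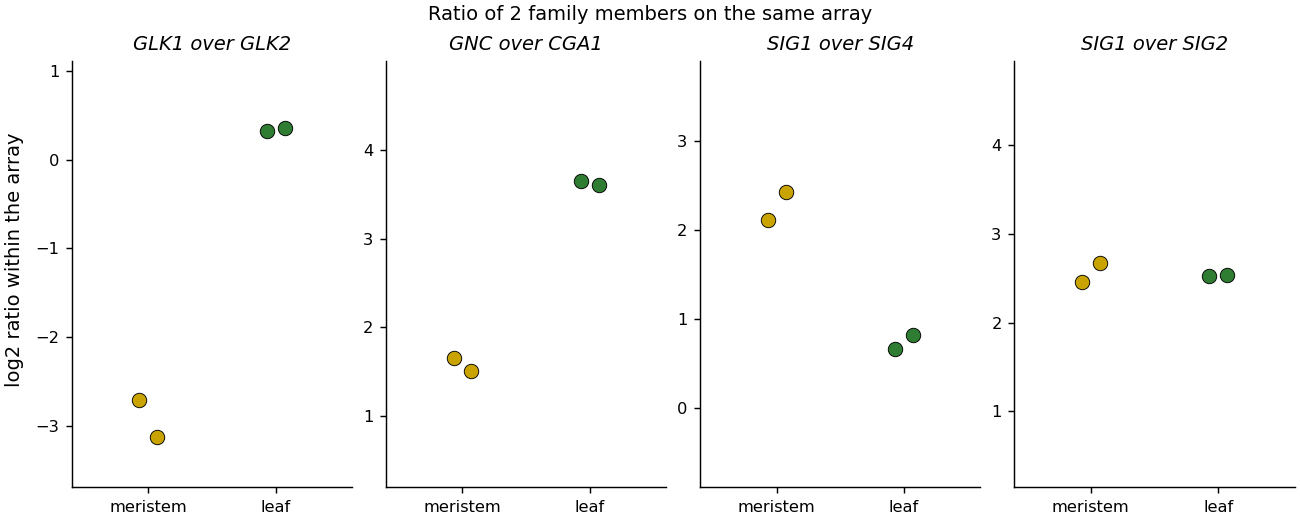
Log2 ratio of the signals of 2 family members on the same array (vertical axis, the same span in each panel) for the meristem arrays (yellow) and the leaf arrays (green). The ratios of *GLK1* to *GLK2*, of *GNC* to *CGA1* and of *SIG1* to *SIG4* changed by -3.25, -2.05 and 1.54 between tissues, and that of *SIG1* to *SIG2* by 0.03.

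All 6 sigma factors were lower in the meristem, with differences of -3.66 to -1.23 and a median of -1.79. *SIG4*, known in Arabidopsis for transcription of the plastid NADH dehydrogenase gene *ndhF*, had the largest difference. Its signal was 8.78 and 8.52 in the meristem, against 12.37 and 12.25 in the leaf. The tissues were separated by many times their spread, and the difference was -3.66 (SE 0.15, 95% interval -4.07 to -3.25, adjusted p = 0.000555 in limma), 12.7-fold more signal in the leaf. It stood at percentile 1.58 of all differences.

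*SIG1* and *SIG2* followed with nearly the same difference. *SIG2* takes part in transcription of plastid tRNA genes, among them the glutamate tRNA from which chlorophyll precursors are made. *SIG2* signal was 8.43 and 8.29 in the meristem, against 10.50 and 10.53 in the leaf (difference -2.16, SE 0.13, adjusted p = 0.000869 in limma). *SIG1* signal was 10.89 and 10.95 in the meristem, against 13.03 and 13.07 in the leaf (difference -2.13, SE 0.12, adjusted p = 0.000815 in limma). Neither overlapped between tissues. Leaf signal was 4.47-fold that of the meristem for *SIG2* and 4.36-fold for *SIG1*, and their log2 ratio changed by 0.03 between tissues.

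*SIG6*, *SIG5* and *SIG3* differed by less. *SIG6*, which acts early in seedling greening, had a signal of 11.54 and 11.48 in the meristem, against 13.01 and 12.91 in the leaf (difference -1.45, SE 0.12, adjusted p = 0.00175 in limma). *SIG5*, which is induced by blue light and stress and acts at the light-responsive promoter of *psbD*, had 7.24 and 7.45 in the meristem, against 8.59 and 8.65 in the leaf (difference -1.27, SE 0.14, adjusted p = 0.00337). *SIG3*, which acts on the *psbN* gene, had 9.99 and 10.39 in the meristem, against 11.44 and 11.39 in the leaf (difference -1.23, SE 0.18, adjusted p = 0.00764). The tissues overlapped in none of the 3. The calls of *SIG5* (-0.94, adjusted p = 0.0928) and *SIG3* (-1.13, adjusted p = 0.0743) were lost with normexp background correction. That of *SIG3* was also lost without scaling (-0.81, adjusted p = 0.0628), with spike-in scaling (-0.46, adjusted p = 0.0584) and with Benjamini-Hochberg adjustment of the methods' own test (adjusted p = 0.0745).

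In order of the difference, the sigma factors were *SIG4*, *SIG2*, *SIG1*, *SIG6*, *SIG5* and *SIG3*. The within-array ratio of *SIG4* to each of the other 5 changed by 1.50 to 2.44 log2 units in size between tissues. The ratios of *SIG1* and *SIG2* to *SIG3*, *SIG5* and *SIG6* changed by 0.67 to 0.93 in size. Smaller changes were those of *SIG1* to *SIG2* (0.03), *SIG3* to *SIG5* (0.05), *SIG3* to *SIG6* (0.23) and *SIG5* to *SIG6* (0.18). Each of these smaller changes was below the gap between the 2 meristem arrays in the same ratio.

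**Figure D3:**
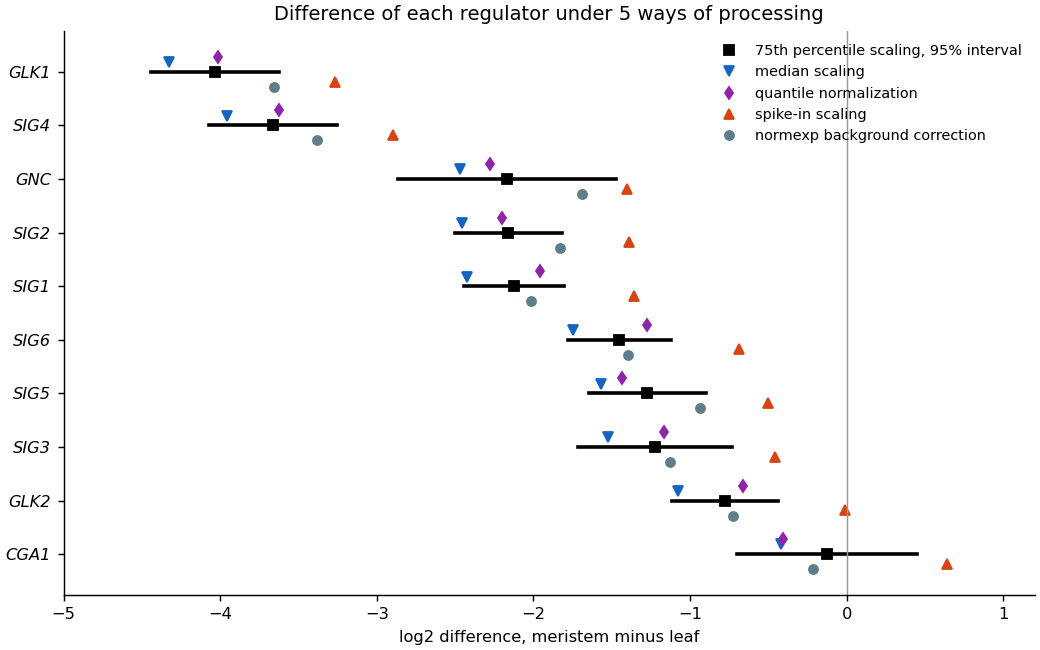
Log2 difference of meristem minus leaf (horizontal axis) of each regulator with scaling to the 75th percentile (black squares, bars are 95% intervals) and under 4 alternatives. Spike-in scaling moved every difference by 0.77 towards the meristem, which put *GLK2* at -0.01 and *CGA1* at 0.64. The other 8 stayed below 0 under each of the 5.

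How arrays are scaled sets the zero point of every difference. The median of all loci moved by -0.30 with median scaling, by 0.42 without scaling, by 0.77 with spike-in scaling and by -0.17 with normexp. Relative to the median of all loci, which a shift of whole arrays leaves unchanged, *GLK1* stood at -4.13, *SIG4* at -3.76, *GLK2* at -0.87 and *CGA1* at -0.22. *GLK1*, *SIG1*, *SIG2*, *SIG4* and *SIG6* kept their calls under all 15 alternatives, although spike-in scaling brought *SIG1* to -1.36, *SIG2* to -1.39 and *SIG6* to -0.68.

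The meristem samples carried transcripts typical of leaves, at a lower signal than the leaf samples. The summed scaled signal of 7 mesophyll markers on the meristem arrays was 10.8% and 8.07% of the leaf mean. *RBCS1A* had the highest signal of the 7 on both meristem arrays (16.29 and 15.84) and weighed most in the meristem sums. All 7 were called lower in the meristem. *CA1*, a carbonic anhydrase, was well above background on 1 of the 2 meristem arrays, so that no share of its leaf level is given. The other 6 were well above background on both, at 0.577% of the leaf level for *RBCS1B* and 0.590% for *LHCB1.4*, and at 21.4% for *RBCS1A*, the highest. *GLK1* stood at 6.11% of its leaf level and *SIG4* at 7.90%. The other 7 called regulators ranged from 22.2% for *GNC* to 58.3% for *GLK2*, point estimates above those of the 6 markers. For *RBCS1A* the 95% interval of the fold of leaf over meristem was 3.13 to 6.97. It overlapped those of *GNC* (2.78 to 7.30), *SIG2* (3.53 to 5.66), *SIG1* (3.50 to 5.45), *SIG6* (2.18 to 3.44) and *SIG3* (1.66 to 3.29). Overlap of intervals does not show equal differences, and no regulator was tested against this marker. The interval of *SIG5* (1.86 to 3.13) ended just short of that of *RBCS1A*, and that of *GLK2* (1.36 to 2.17) lay below it. The part of carried-over or differentiating leaf cells in the meristem signal of the regulators was not tested. The 8 markers of other cells moved in both directions, with 3 lower (*FAMA* of guard cells at -2.64, *SUC2* of phloem companion cells at -1.74, the epidermal *FDH* at -1.07), 3 higher (the trichome factor *GL1* at 2.61, the epidermal *PDF1* at 1.70, the mitotic cyclin *CYCB1;1* at 1.68), and *ATML1* (-0.16) and *GL3* (1.25) not called. Their part in the differences was not tested either.

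Genes that GLK factors are known to activate were lower in the meristem throughout the lists used. All 12 genes of chlorophyll synthesis were called lower, with a median difference of -2.19. *PORC*, a light-dependent protochlorophyllide reductase, had 10.33 and 9.68 in the meristem, against 13.78 and 13.69 in the leaf (-3.73). *DVR*, the divinyl reductase, differed by -2.72 and *PORB* by -2.62. All 11 antenna genes were lower by at least 2 log2 units, with a median of -3.09. *LHCB1.4* differed by -7.41 and *LHCB2.2* by -4.17, but their meristem replicates lay far apart (11.72 and 9.98 for *LHCB1.4*), and LHCB genes are close copies that may share signal. *LHCB4.2* differed by -3.25 with replicates close together. Of the 11, *LHCB1.4* and *LHCB3* are also among the 7 mesophyll markers.

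The related B-type GATA genes examined showed no such fall. Of 8 relatives of *GNC* and *CGA1*, 0 were lower, 6 were higher in the meristem and 2 were not called (*GATA15* at 0.34, *GATA23* at -0.15), with a median of 0.85. Of all loci tested, 27.1% were called higher. *HAN*, which acts at boundaries of meristem and floral organs, had 9.52 and 10.23 in the meristem, against 6.65 and 6.48 in the leaf (difference 3.31, adjusted p = 0.00174 in limma). *GATA19*, a close relative of *HAN*, differed by 1.94 and *GATA16* by 1.50. The 6 kept their sign under median, spike-in and no scaling, and the weakest of these calls had an adjusted p of 0.0496 in limma. The count called higher was 4 with median scaling and by the methods' own test after adjustment. It was 5 without the filter, with the mean of probes and with the replicate number as a block, and 7 with spike-in scaling. With normexp background correction 0 of the 8 were called.

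Regulators of light signalling and of GLK or GATA genes were mixed. Of 16 such genes, 10 were lower in the meristem, 2 higher and 4 not called, with a median of -0.88. *PIF7*, a phytochrome-interacting bHLH factor, had 3.81 and 4.19 in the meristem, against 9.98 and 10.13 in the leaf (-6.05). *PIF5*, a relative, differed by -2.05, and *ORE1*, a NAC factor of leaf senescence that antagonises GLK activity, by -1.51. The light-signalling bZIP factors *HYH* (1.70) and *HY5* (0.94) were higher. *PIF3* (0.55, adjusted p = 0.0502 in limma), *PHYB* (0.60, adjusted p = 0.0571), *COP1* (0.19) and *ARF2* (-0.10) did not pass. The 10 lower calls became 3 with normexp, 6 without scaling and 5 by the methods' own test after adjustment. The 2 higher calls became 0 with normexp and by the adjusted methods' test, 4 without scaling, with quantile normalization and over loci well above background only, 5 with spike-in scaling, and 1 by the unadjusted methods' test and without leaf replicate 2, where *HY5* lost its call (0.91). Under spike-in scaling 1 of the 10 lower genes, *PHYA*, had a difference above 0.

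The partners of the sigma factors in the plastid were lower too, with a median nearer to 0. Of 13 genes for PEP-associated proteins (PAPs), which bind the polymerase core in chloroplasts, 12 were lower and *PAP4* was not called (-0.37, adjusted p = 0.0668 in limma), with a median of -1.11. *PAP12* had 11.65 and 11.22 in the meristem, against 13.97 and 13.74 in the leaf (-2.42). *PAP10*, a plastid thioredoxin, differed by -1.59 and *PAP6*, a fructokinase-like protein, by -1.16. The count of 12 was 4 by the methods' own test after adjustment, 1 with normexp, and 2 without scaling or with spike-in scaling. It fell too when any 1 array was left out, most without leaf replicate 1. It was 13 with median scaling, over loci well above background only and by the unadjusted methods' test. Under spike-in scaling 1 of the 13 was called higher in the meristem, and *PAP11* had a difference above 0. The phage-type RNA polymerases of the organelles did not move together. The plastid enzyme *RPOTp* was lower (-0.66, but 0.11 with spike-in scaling), the mitochondrial *RPOTm* was higher (0.66), and the dual-targeted *RPOTmp* was not called (0.30). The call of *RPOTp* was lost without meristem replicate 1 (-0.59), leaf replicate 1 (-0.76) or leaf replicate 2 (-0.56), and that of *RPOTm* without meristem replicate 1 (0.73), meristem replicate 2 (0.59) or leaf replicate 1 (0.46). *RPOTp* also lost its call with normexp (-0.57), without scaling (-0.25) and by the adjusted methods' test, and *RPOTm* with normexp (0.45), quantile normalization (0.54), median scaling (0.36) and both forms of the methods' test. Transcripts made in the plastid, the direct output of the sigma factors, were not analysed here.

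Genes of plastid division and protein import were called less uniformly. Of 10 division genes, 5 were lower, among them the dynamin-like *ARC5* (-2.03), the ring protein *FTSZ2-2* (-1.76) and *MINE1* (-1.31), and 5 were not called. The 5 became 3 without leaf replicate 2, with normexp, without scaling and with spike-in scaling, and the median of -0.58 became 0.19 with the last, where 3 division genes were called higher in the meristem. Of 6 import genes, 1 (*TIC110*) was not tested because of an outlier spot, and 3 were lower: the receptor *TOC159* (-0.80), the channel *TOC75-III* (-0.70, but 0.06 with spike-in scaling) and *TIC40* (-0.59, but 0.18 with spike-in scaling). *TOC33* (-0.42) and *TOC34* (0.35) were not called, and the median of -0.59 became 0.18 under spike-in scaling. Without leaf replicate 1 there was 1 import gene called lower, and 0 without leaf replicate 2, with normexp, without scaling or with spike-in scaling, where 1 was called higher. By the methods' own test after adjustment, 3 division genes and 1 import gene were called lower. The shares of all loci, against which each list count is read, were 21.6% called lower and 27.1% called higher.

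**Figure D4:**
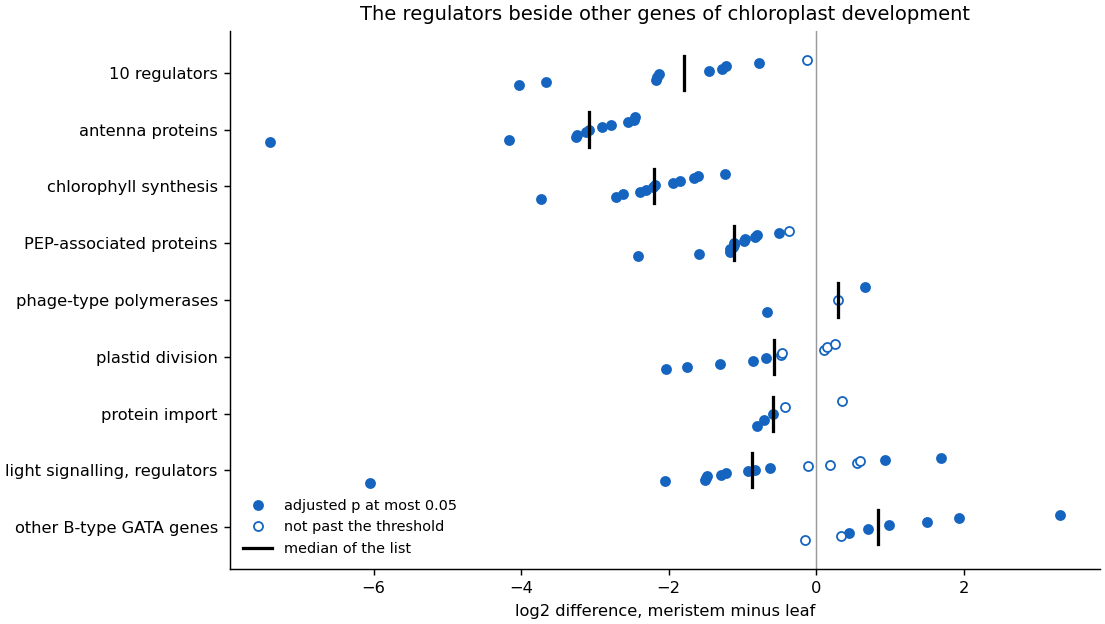
Log2 difference of meristem minus leaf (horizontal axis) of the 10 regulators and of the genes of 8 related lists (rows). Filled points passed an adjusted p of 0.05, open points did not, and bars are list medians. The medians run from -3.09 for antenna proteins to 0.85 for the 8 related B-type GATA genes, with the regulators at -1.79.

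Among all loci tested, the 3 whose 4 array values, each taken relative to the mean of the locus, lay closest to those of *GLK1* were *RCA* (AT2G39730, Rubisco activase, distance 0.072, difference -4.03), AT3G55710 (distance 0.122, difference -3.93) and *CID9* (AT3G14450, distance 0.126, difference -4.06). The distance is Euclidean, in log2 units over 4 arrays, and 133 loci lay within 0.5 of *GLK1*. With 4 arrays in 2 tissues, such likeness mostly restates the size of the tissue difference.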

How the data were processed

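RNA of 2 meristem and 2 leaf samples was labelled with Cy3 and hybridised to one-colour Agilent 44k arrays, all on 1 slide. The authors deposited 1 scanner file per array from Feature Extraction 9.5.3.1, whose processed intensity per spot is background-corrected but not scaled between arrays; how the study's own values were normalised is not given in the sources used here. Outlier spots (10 to 12 per array) were left out. Log2 intensity was scaled to each array's 75th percentile (874 and 978 on meristem arrays, 606 and 794 on leaf arrays), and the brightest probe stood for a locus. In at least 1 tissue, 23259 loci exceeded the background on both arrays, and these were fitted in R 4.3.3 with limma 3.58.1 and Benjamini-Hochberg adjustment. Plots used Python 3.11.15 with matplotlib 3.10.9. A test on simulated data of this size, in which 200 of 23259 loci were changed, recovered 0 of 100 changes of 1 log2 unit and 54 of 100 of 2 units, with 3 false calls. Far more loci were called in the real data (5014 lower and 6301 higher). The adjustment depends on that share, so these recovery counts do not apply to the calls reported above. The number of arrays, 2 per tissue, limits the precision.

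The regulators and gene lists were chosen with earlier results of these data known. All 10 regulators are named; of each list, up to 3 called genes per direction with the largest difference and those that account for a count of 5 or fewer are named. Alternatives were other background correction, scaling, filters, probe summaries and tests, a replicate block and leaving out each array. Gene and protein sequences were not analysed here.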

Additional observations from a re-analysis of the deposited data

How the results depend on the processing

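*GLK1*, *SIG1*, *SIG2*, *SIG4* and *SIG6* kept direction and call under all 15 alternatives. With normexp background correction *GLK2* (-0.73), *GNC* (-1.69), *SIG3* (-1.13) and *SIG5* (-0.94) lost their calls, leaving 5 regulators called. Without scaling *GLK2* (-0.36) and *SIG3* (-0.81) lost theirs and *CGA1* turned to 0.29. With spike-in scaling *GLK2* (-0.011) and *SIG3* (-0.46) lost theirs and *CGA1* turned to 0.64. *GNC* (-2.17) and *SIG3* (-1.23) did not pass after Benjamini-Hochberg adjustment of the methods' t-test. Leaving out 1 array at a time, *GLK2* ranged from -0.85 to -0.71 and lost its call without either leaf array, and *CGA1* ranged from -0.38 to 0.13.

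The count of all loci called lower (5014) was 1305 with normexp, 2836 without scaling, 2675 with spike-in scaling and 2802 by the methods' t-test with adjustment. The count called higher (6301) was 547 with normexp, 4088 with median scaling, 15269 with spike-in scaling and 2808 by the methods' t-test with adjustment, and ranged from 3736 to 5920 without 1 array. Higher calls made up 55.7% of all calls, against 29.5% with normexp, 37.2% with median scaling, 73.3% without scaling and 85.1% with spike-in scaling. The cause was not tested beyond the shift of all loci that each scaling makes. Under spike-in scaling *RPOTp* (0.11), *TIC40* (0.18), *TOC75-III* (0.064) and the medians of plastid division (0.19) and protein import (0.18) turned, and with normexp the median of other cell markers did (-0.15). With the replicate number as a block, 4851 loci were called lower and 6066 higher, and 9 regulators kept their calls. Across the 23259 loci tested, the gap between meristem samples 1 and 2 correlated with the gap between leaf samples 1 and 2 at r = 0.0902. The labels do not say that the numbers pair samples.

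For the 36 genes with the largest called differences in the lists, the 15 alternatives gave 471 comparisons that kept the call, 66 that lost it and the 3 turns named above. Outside these 36, *PHYA*, *PAP11* and *FTSZ1*, called lower, also lay above 0 under spike-in scaling, and turns of uncalled genes were not counted. The precision is set by 2 arrays per tissue.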

Other observations

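The replicates of the regulators were closer in the leaf than in the meristem. The SD of the 2 meristem values exceeded that of the 2 leaf values for 9 of the 10 regulators, and for 13958 of the 23259 loci tested. For the regulators the median SD was 0.17 on meristem arrays and 0.03 on leaf arrays. Over all loci it was 0.14 on meristem arrays and 0.10 on leaf arrays. *GNC* (0.67) and *CGA1* (0.52) were higher on meristem array 1 than on array 2, while *SIG3* (-0.40) and *SIG5* (-0.21) were lower there, so the gaps did not run in 1 direction. The signal of 6 of the 10 was higher on meristem array 1. These values are descriptions of 2 samples per tissue and were not tested.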
